A study of Mus musculus with 2 samples.

Results

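The miR-34 and miR-449 family is a set of miRNAs that share 1 seed, the bases 2 to 8 through which a miRNA pairs with its target mRNAs. Its members in whole mouse brain were taken from the study's list of known miRNAs, as every name without a star that begins with mmu-miR-34a, mmu-miR-34b, mmu-miR-34c or mmu-miR-449. The rule found 5 names, mmu-miR-34a, mmu-miR-34b-5p, mmu-miR-34b-3p, mmu-miR-34c and mmu-miR-449a, among 713 known miRNA starts that had a read. For each name, the tag (distinct read sequence) with the listed young and old counts was found, and all tags with the same first 18 bases were added to it. For mmu-miR-34b-3p, whose counts 410 tags carried, and for mmu-miR-449a, whose counts 94 tags carried, the RefSeq mature sequence decided. Each of the 5 reached 10 reads in 1 library or both and so entered the test over 370 known starts. The rule used the counts only to find the tag, not the difference between ages.

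Small RNAs of whole brain were sequenced from male C57BL/6J mice, for which the labels name no treatment or altered genotype. The young library combined the cDNA of 2 mice aged 5 months, and the old library that of 2 mice aged 24 to 25 months. There was therefore 1 library per age, no value below has an error between animals, and every test compares these 2 libraries and not the ages. Intervals are exact 95% intervals unless named otherwise and cover counting error only. They take each read as a separate draw. PCR copies of 1 molecule cannot be told from separate molecules, so the intervals may be too narrow even for counting error.

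miR-34a, which is transcribed from a gene of its own, and miR-34b and miR-34c, which are cut from a common transcript, are known targets of the tumour suppressor p53. The miR-449 miRNAs lie in an intron of Cdc20b and are known, with miR-34b and miR-34c, from cells that bear many motile cilia, which in the brain are ependyma and choroid plexus. miR-34a is known for promoting cell cycle arrest and has been studied in ageing tissues. Because whole brain was sequenced, a change in the number of cells of a type and a change in RNA per cell cannot be told apart.

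The sequences show why the members can be told apart although they share a seed. They are printed as the deposited tags, 5′ to 3′, with T for U and the seed in capitals.
mmu-miR-34a: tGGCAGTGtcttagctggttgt
mmu-miR-34b-5p: aGGCAGTGtaattagctgattgt
mmu-miR-34c: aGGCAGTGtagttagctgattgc
mmu-miR-449a: tGGCAGTGtattgttagctggt
mmu-miR-34b-3p: aATCACTAactccactgccatc
mmu-miR-34a-3p: aATCAGCAagtatactgccct

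The first 4 have the seed GGCAGTG, and mmu-miR-449c-5p, from the RefSeq table of the mouse assembly, also has it. mmu-miR-34b-3p comes from the opposite arm of the miR-34b hairpin and has another seed, so it is a member by name only. mmu-miR-34a-3p, the opposite arm of the miR-34a hairpin, was not chosen by the rule and is given for comparison. Counted from 1 at the 5′ end, mmu-miR-34c and mmu-miR-34b-5p differ by the substitutions G11A and C23T, with the base of mmu-miR-34c first. Their first 18 bases differ at 1 position, while mmu-miR-34a differs from either at 8 positions and from mmu-miR-449a at 6.

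The hairpins were placed in the mouse genome build NCBIM37, which is the sequence of mm9. Mir34a lies at chr4:149442563-149442664 on the plus strand, and no annotated gene overlaps it. Mir34b at chr9:50911667-50911750 and Mir34c at chr9:50911139-50911215 lie on the minus strand, 451 bases apart, with no other annotated gene over them. Mir449a at chr13:113827742-113827832, Mir449b at chr13:113827627-113827706 and Mir449c at chr13:113826191-113826299 lie on the plus strand within an intron of Cdc20b, which is transcribed in the same direction. Each start of 18 bases above matched the genome perfectly at 1 place. The hairpins of the neighbours Mir34b and Mir34c are shown because their 5′ arms are nearly the same while their loops differ, with the mature arms in capitals.
Mir34b: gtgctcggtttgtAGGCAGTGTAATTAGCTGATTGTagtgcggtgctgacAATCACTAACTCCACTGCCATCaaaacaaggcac
Mir34c: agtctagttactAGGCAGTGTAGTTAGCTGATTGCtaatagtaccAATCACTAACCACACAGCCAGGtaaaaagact

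The young library held 4523267 reads and the old library 6658732, so that 1 read stood for 0.221 reads per 1000000 (RPM) in young and 0.150 RPM in old. Brain miRNAs were abundant in both, with miR-124, the main miRNA of neurons, at 39418 RPM in young and 17001 RPM in old. Of the 370 known starts with at least 10 reads in a library, 299 (80.8%) were lower in old by total reads, and the median log2 old/young ratio was -0.66. With the TMM factor of edgeR as depth, which moved every log2 ratio up by 0.67, 49.5% were lower. Starts of the let-7 family, which is no part of this seed family, held 34.1% of all young reads and 49.0% of all old reads. Ratios are therefore given by total reads and also relative to the median known start, and differences between members, into which depth does not enter, are given beside them.

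mmu-miR-34c held nearly all reads of the family, while the other members were minor. It had 32054 reads in young and 41574 in old, or 7086 RPM (interval 7009 to 7164) and 6244 RPM (6184 to 6304). It ranked 15 among the 370 known starts in young and 14 in old. Of the reads on the 5 known starts with the seed, 98.0% (Wilson interval 97.9 to 98.2) belonged to mmu-miR-34c in young and 98.5% (98.4 to 98.6) in old.

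mmu-miR-34b-5p, cut from the same transcript, had 315 reads in young and 398 in old, or 69.6 RPM (62.2 to 77.8) and 59.8 RPM (54.0 to 65.9). The 2 intervals overlapped. mmu-miR-34a had 312 reads in young and 212 in old, or 69.0 RPM (61.5 to 77.1) and 31.8 RPM (27.7 to 36.4). In young, mmu-miR-34a and mmu-miR-34b-5p thus did not differ beyond counting error, ranking 142 and 141. In old they stood apart, ranking 157 and 134, with intervals that did not overlap.

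mmu-miR-449a had 13 reads in young and 9 in old, or 2.87 RPM (1.53 to 4.91) and 1.35 RPM (0.618 to 2.57). mmu-miR-34b-3p had 8 and 10 reads, or 1.77 RPM (0.764 to 3.48) and 1.50 RPM (0.720 to 2.76). These members were near the bottom of the tested range, and their intervals overlapped in both libraries. mmu-miR-449c-5p, which the list of known miRNAs did not lead to, had 4 reads in young and 6 in old. The opposite arms of miR-449a and miR-449c had 0 reads, and taken as a floor of 3 reads, which is lower than the exact interval's bound, a count of 0 allows up to 0.663 RPM in young and 0.451 RPM in old.

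**Figure D1:**
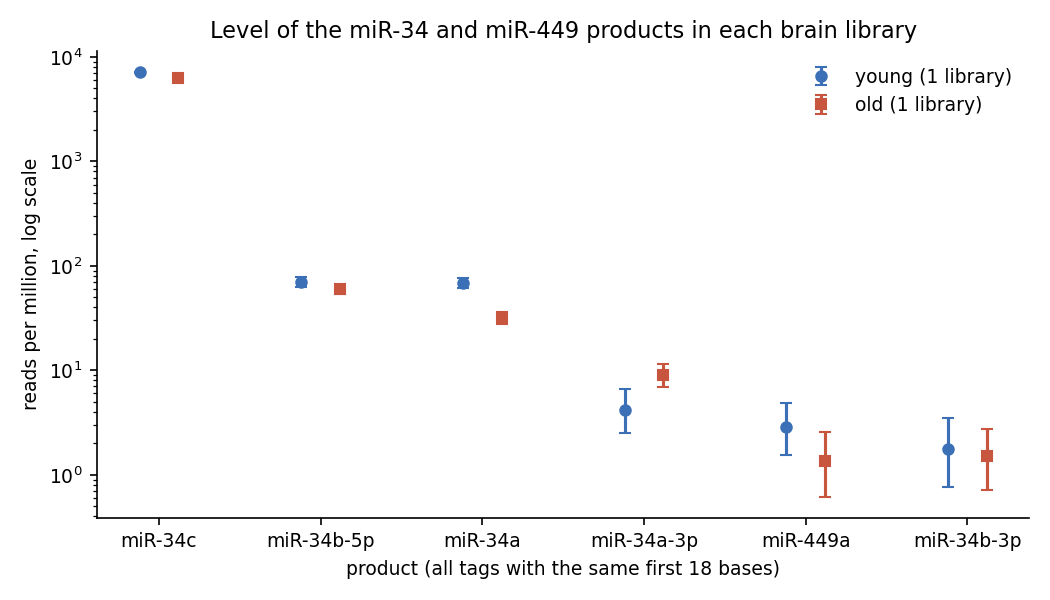
Level of each product in RPM on a log axis, for the young (circles) and old (squares) library, with exact 95% counting intervals as bars. mmu-miR-34c lies near 7086 RPM in young and 6244 RPM in old, mmu-miR-34b-5p and mmu-miR-34a have overlapping bars in young and stand apart in old, and mmu-miR-34a-3p is the product that lies higher in old.

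The comparison of old with young asks how the family differed between the libraries of the 2 ages. mmu-miR-34a was 2.17-fold lower in old by total reads, a log2 ratio of -1.12 (interval -1.37 to -0.86), with an adjusted exact binomial p of 5.31e-18 over the 370 starts. Lower by at least 2-fold in old were 31.4% of all known starts, and mmu-miR-34a was among them. mmu-miR-449a also lay past this fold, but it reached 10 reads only in young, where it was higher, and is not counted in support. Of the known starts, 23.0% had a lower ratio than mmu-miR-34a, so its decrease by total reads was not among the extremes. It lay below the median known start by a log2 difference of -0.46. With the linear trend on GC content over all known starts removed, mmu-miR-34a had -0.89 and the median known start -0.65. With an assumed coefficient of variation of 0.2 between libraries, each of 2 mice, the decrease was no longer called (edgeR's exact test, adjusted p = 0.0545).

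mmu-miR-34c and mmu-miR-34b-5p changed little by total reads, and the direction of both depended on the scaling. mmu-miR-34c had a log2 ratio of -0.18 (-0.20 to -0.16) by total reads and of 0.48 relative to the median known start, so it was lower in old by the first scaling and higher by the second. Its adjusted exact binomial p by total reads was 6.12e-64, at a 1.14-fold difference. The call was lost with an assumed coefficient of variation of 0.1 between libraries (edgeR's exact test, adjusted p = 0.471). mmu-miR-34b-5p had a log2 ratio of -0.22 (-0.44 to -0.0026) and an adjusted exact binomial p of 0.0620 by total reads, and of 0.44 relative to the median known start. Of the known starts, 74.3% had a lower ratio than mmu-miR-34c and 73.0% a lower ratio than mmu-miR-34b-5p.

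mmu-miR-449a had a log2 ratio of -1.09 with a wide interval of -2.49 to 0.25 (adjusted exact binomial p = 0.116), and mmu-miR-34b-3p had -0.24 with an interval of -1.73 to 1.31 (adjusted exact binomial p = 0.853). At this depth no difference was detectable for either. By adjusted p, 60.3% of the known starts were called lower in old, as were 2 of the 5 members (mmu-miR-34a and mmu-miR-34c). By total reads 8.11% of the known starts and no member were called higher, and 2.16% of the known starts were higher by at least 2-fold, again with no member. With the TMM factor or DESeq2 size factors as depth, mmu-miR-34c and mmu-miR-34b-5p were both called higher, and 38 known starts in place of 8 were higher by at least 2-fold.

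**Figure D2:**
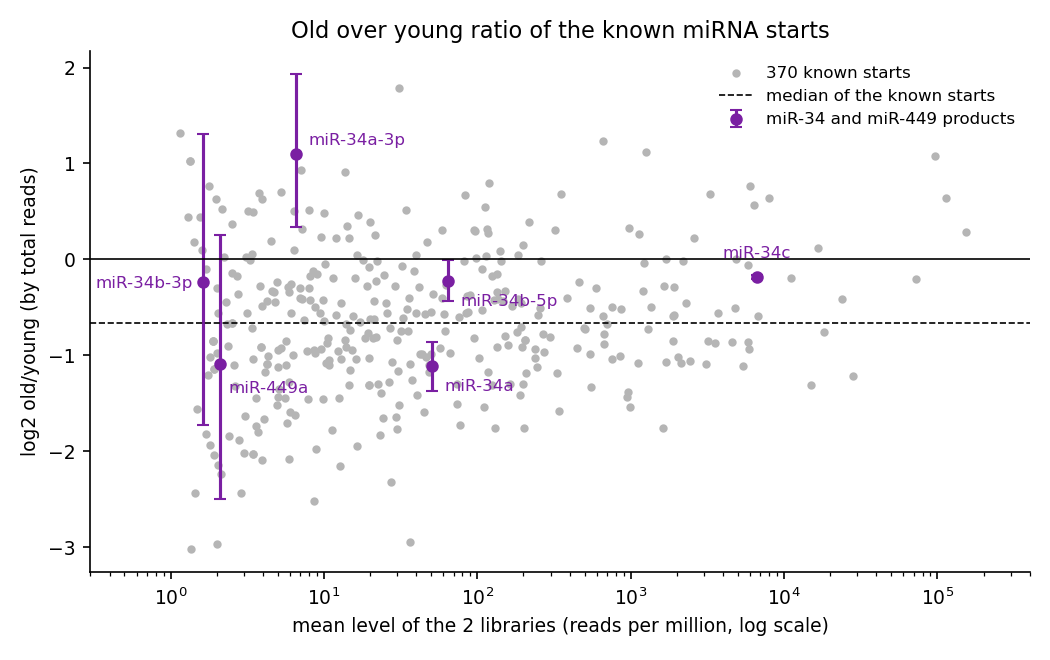
Log2 old/young ratio by total reads against mean level (RPM, log axis) for 370 known miRNA starts (grey) and the family's products (purple, with exact 95% counting intervals). mmu-miR-34a at -1.12 lies below the dashed median of -0.66, whereas mmu-miR-34c at -0.18 and mmu-miR-34b-5p at -0.22 lie above it, which is lower than young by total reads and higher relative to the median.

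Depth cancels when members are compared with each other, and mmu-miR-34a then moved apart from the other main members. For 15 pairs of 6 products, the difference of the log2 ratios was tested with a two-sided Fisher's exact test on the reads, with p-values adjusted over the 15 pairs. These tests remove depth but not the spread between libraries. They were not run with an assumed coefficient of variation. mmu-miR-34a decreased against mmu-miR-34c by a log2 difference of -0.93 (-1.19 to -0.68, adjusted Fisher's exact p = 4.07e-12). Against mmu-miR-34b-5p the difference was -0.89 (-1.23 to -0.56, adjusted Fisher's exact p = 5.65e-07). GC content does not cancel as depth does. With the GC slope over all known starts removed, the difference from mmu-miR-34c was -0.74, which was not tested. The log2 ratios of mmu-miR-34a and mmu-miR-34b-5p by total reads were then -0.89 and -0.37. In reads, mmu-miR-34c outnumbered mmu-miR-34a 103-fold in young and 196-fold in old.

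mmu-miR-34b-5p and mmu-miR-34c, the pair with a common transcript, differed in their ratios by -0.04 (-0.26 to 0.18, adjusted Fisher's exact p = 0.916). The interval leaves room for a difference of about 0.26 on the log2 scale, and with the GC slope over all known starts removed the difference was -0.23, which was not tested. mmu-miR-34c outnumbered mmu-miR-34b-5p 102-fold in young and 104-fold in old, although both hairpins lie within 1 stretch of chromosome 9. The log2 ratio of mmu-miR-34c minus that of mmu-miR-449a was 0.91 (-0.43 to 2.31, adjusted Fisher's exact p = 0.326), which the few reads of mmu-miR-449a cannot resolve.

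**Figure D3:**
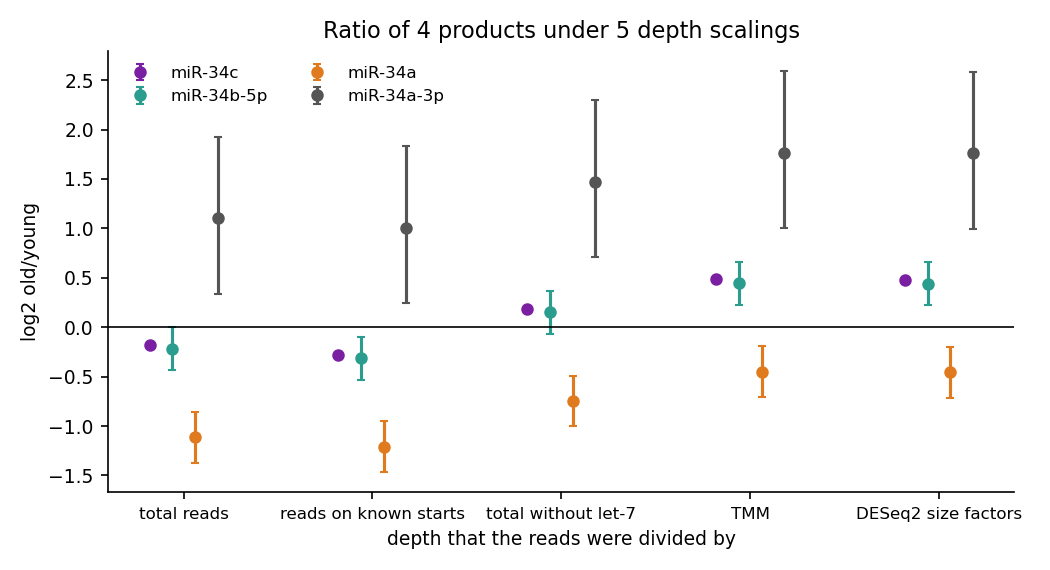
Log2 old/young ratio of 4 products under 5 choices of the depth that reads were divided by, with exact 95% counting intervals. mmu-miR-34a stays below 0 and mmu-miR-34a-3p above 0 under all 5, mmu-miR-34c and mmu-miR-34b-5p change sign between the first 2 and the last 3, and the distances between products stay the same.

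The arms of each hairpin were then compared. mmu-miR-34a-3p, the minor arm, had 19 reads in young and 60 in old, or 4.20 RPM (2.53 to 6.56) and 9.01 RPM (6.88 to 11.6). These intervals did not overlap. Its log2 ratio was 1.10 (0.34 to 1.93, adjusted exact binomial p = 0.00458), and 98.6% of the known starts had a lower one. The call was lost with the exact mature tag only (log2 0.61, adjusted exact binomial p = 0.637). It was also lost with an assumed coefficient of variation of 0.2 between libraries (edgeR's exact test, adjusted p = 0.167). The reads per arm of the miR-34a hairpin went from 16.4 5′ reads for each 3′ read in young to 3.53 in old. The 5′ arm moved against the 3′ arm by -2.22 on the log2 scale (-3.08 to -1.40, adjusted Fisher's exact p = 3.29e-08). Most 3p reads came from 1 tag a base longer than the RefSeq mature sequence, shown with its seed in capitals.
mmu-miR-34a-3p, main tag: aATCAGCAagtatactgcccta

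This main tag had 10 reads in young and 41 in old, and the tag of the exact mature sequence had 4 and 9. The 5′ reads of miR-34a have 55.6% G or C in their first 18 bases and the 3p reads 38.9%. Over the 370 known starts the log2 ratio was lower where GC content was higher, by 0.34 for each 10 percentage points (a fitted slope of -0.34, Pearson's r = -0.49 as a description across starts of the same 2 libraries). With that slope removed, the difference between the arms of miR-34a was still negative, at -1.65, and the log2 ratio of mmu-miR-34a-3p alone was 0.76 and no longer called (adjusted exact binomial p = 0.0660). With the exact mature tags only, the difference between the arms was -1.66 and did not pass (Fisher's exact p = 0.0803).

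For miR-34b the arms kept their ratio, with 39.4 reads of the 5p arm for each 3p read in young and 39.8 in old. The log2 ratios of the 2 arms differed by -0.02, with an interval of -1.53 to 1.55 that 8 and 10 reads of the 3p arm allow. For miR-34c the 3p arm had 1 read in each library, against 32054 and 41574 on the 5p arm. Of the reads that matched the Mir34c hairpin perfectly over their full length, 26887 of 26911 in young and 34154 of 34174 in old began at the first base of mmu-miR-34c. No read of either library matched the Mir449b hairpin perfectly over the read's full length. The start that differs from that of mmu-miR-34c by the substitution A10T does occur in this hairpin. It had 22 reads in young and 35 in old, all from tags that departed from the hairpin after that start. Whether these reads came from Mir449b or were misread mmu-miR-34c was not tested.

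The 3′ ends of mmu-miR-34c were shorter in the old library. The full 23-base tag made up 40.5% of its reads in young (Wilson interval 40.0 to 41.0) and 35.9% in old (35.5 to 36.4), with an adjusted Fisher's exact p of 6.13e-36 over 6 tests of ends. Tags shorter than 23 bases rose from 43.1% (42.5 to 43.6) to 47.1% (46.7 to 47.6) of its reads (adjusted Fisher's exact p = 1.39e-27). By tag length, the log2 ratio of mmu-miR-34c reads was -0.23 at 19 bases, -0.14 at 20, -0.00 at 21, -0.07 at 22, -0.28 at 23, -0.34 at 24, -0.59 at 25 and -0.49 at 26. At 18 bases it was 0.61 (-0.66 to 2.02), from 8 reads in young and 18 in old. The 21- and 22-base tags, which held most of the shorter reads, were thus nearest to 0, and the ratio did not follow length over the whole range.

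The 4 most abundant tags show where the reads moved. They are printed with the seed in capitals and differ only at the 3′ end.
mmu-miR-34c, full length: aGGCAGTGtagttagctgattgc
mmu-miR-34c, 1 base shorter: aGGCAGTGtagttagctgattg
mmu-miR-34c, 2 bases shorter: aGGCAGTGtagttagctgatt
mmu-miR-34c, 1 base shorter with an added T: aGGCAGTGtagttagctgattgt

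The full-length tag had 12982 reads in young and 14938 in old, a log2 ratio of -0.36 by total reads. The tag 1 base shorter had 7547 and 10368 reads, a log2 ratio of -0.10. The tag 2 bases shorter had 4670 and 6852 reads, a log2 ratio of -0.00. The shorter tags thus gained on the full-length tag within the same start, whatever the depth.

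The fourth tag ends in a T (a U in the RNA) that the genome does not hold at that place, and had 1959 and 2847 reads. All tags of mmu-miR-34c with an untemplated U tail made up 7.46% of its reads in young (Wilson interval 7.18 to 7.76) and 8.83% in old (8.56 to 9.11). Tags with an A tail stood at 5.68% (5.43 to 5.94) and 5.72% (5.50 to 5.94). The U-tailed share was thus higher in the old library by more than counting error, and the A-tailed share was not. Over 146 known starts with at least 200 reads in each library, the U-tailed share also changed by a median of 0.46 percentage points (quartiles 0.018 and 1.26), and 113 of them lay below the 1.37 points of mmu-miR-34c.

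mmu-miR-34b-5p had the same pattern in the values, without passing the test. Its full-length tag made up 57.1% (51.6 to 62.5) of its reads in young and 49.2% (44.4 to 54.1) in old (adjusted Fisher's exact p = 0.0828), and its 21-base tags stood at 20.6% and 27.4%. For mmu-miR-34a the full-length tag made up 39.7% (34.5 to 45.3) and 41.5% (35.1 to 48.2), a difference within counting error (adjusted Fisher's exact p = 0.717). Over the same 146 known starts, the mean tag length changed from young to old by a median of 0.03 bases, with quartiles of -0.02 and 0.07. mmu-miR-34b-5p changed by -0.15 bases and mmu-miR-34c by -0.07, and 3 and 15 of the 146 starts lay below them. mmu-miR-34a changed by 0.04 bases, with 92 starts below it.

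**Figure D4:**
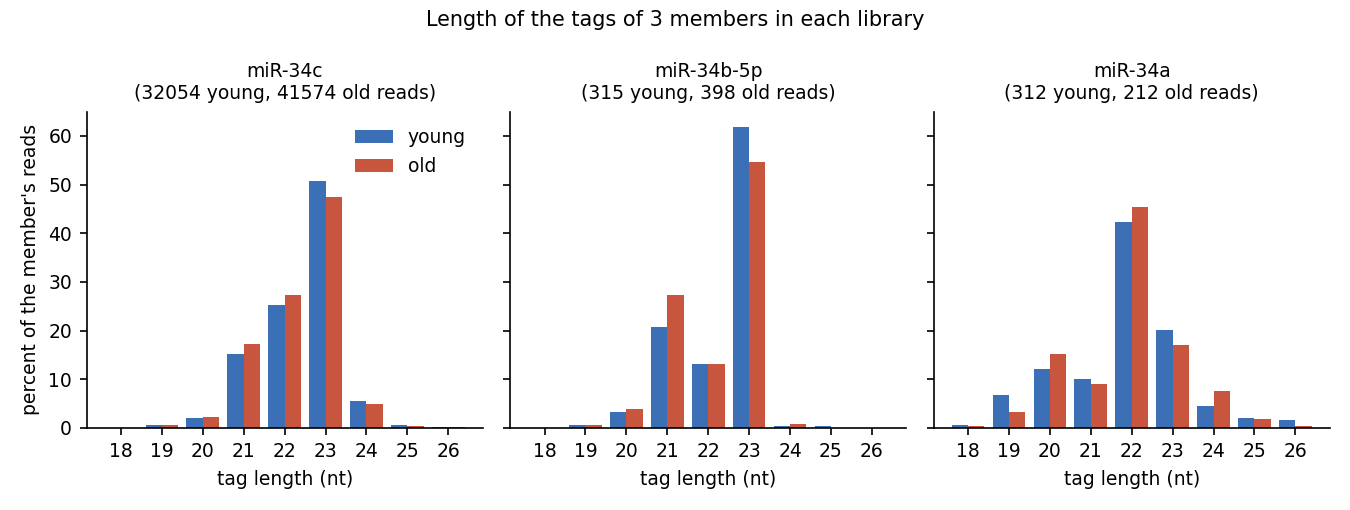
Percent of each member's reads by tag length in bases (nt), for the young (blue) and old (red) library. The 23-base bar is lower in old for mmu-miR-34c (50.7% to 47.4%) and mmu-miR-34b-5p (61.9% to 54.5%), while mmu-miR-34a, whose main tags have 22 bases, stood at 42.3% and 45.3% there.

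The 5′ end sets the seed, and in it the neighbours miR-34b and miR-34c differed. Reads that began 1 base before the annotated start of mmu-miR-34b-5p numbered 27 in young and 34 in old, or 7.89% (Wilson interval 5.48 to 11.2) and 7.87% (5.69 to 10.8) of its reads with both starts. For mmu-miR-34c there were 19 and 13 such reads, or 0.0592% (0.0379 to 0.0925) and 0.0313% (0.0183 to 0.0535). The odds of the earlier start were 144-fold higher for mmu-miR-34b-5p in young (interval 76.4 to 278, Fisher's exact p = 5.20e-42) and 273-fold in old (139 to 568, Fisher's exact p = 8.55e-58). The share of mmu-miR-34b-5p was the same in both libraries within counting error. Among tags that matched the hairpins perfectly, the earlier starts held the same counts. The annotated starts there held fewer reads than the shares used, with 296 and 362 for mmu-miR-34b-5p and 26887 and 34154 for mmu-miR-34c. For mmu-miR-34a, 2 reads in young and 0 in old began 1 base early.

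The earlier start moves the seed by 1 base. The most abundant such tag of each miRNA is shown with its own bases 2 to 8 in capitals.
mmu-miR-34b-5p, 1 base early: tAGGCAGTgtaattagctgatt
mmu-miR-34c, 1 base early: tAGGCAGTgtagttagctgattg

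The first had 10 reads in young and 18 in old, and the second 8 and 6. Both carry the seed AGGCAGT in place of GGCAGTG, and in both hairpins the base before the mature start is a T.

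Because mmu-miR-34b-5p and mmu-miR-34c differ at 1 of their first 18 bases and mmu-miR-34c had over 100-fold more reads, misread mmu-miR-34c tags could be counted as mmu-miR-34b-5p. The reads of mmu-miR-34b-5p equalled 0.983% of those of mmu-miR-34c in young and 0.957% in old. The other 53 starts that differ from mmu-miR-34c by 1 base had a median of 24 reads in young and 32 in old. Their maximum was 202 reads in young (T9G) and 409 in old (A14T), and that last variant alone exceeded mmu-miR-34b-5p. Among the 53, A1T, T7C, T9G, A10T and A14C each matched the genome perfectly at 1 place, A10T in the Mir449b hairpin. Whether the reads of these variants were misread mmu-miR-34c was not tested. At the same position, the other 2 substitutions (G11C and G11T) had 14 and 44 reads in young and 19 and 86 in old.

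Base 23 gave a second mark that the grouping by first 18 bases had not used. Among tags with the first 18 bases of mmu-miR-34b-5p that reached base 23, 98.9% (Wilson interval 96.1 to 99.7) of 184 reads in young and 94.3% (90.3 to 96.7) of 210 in old had the T of mmu-miR-34b-5p there. Under the start of mmu-miR-34c, 84.1% of 17624 reads in young and 80.7% of 21007 in old had its C. The C at base 23, which a misread mmu-miR-34c tag would keep, was found in 1 of 184 and 6 of 210 reads of the mmu-miR-34b-5p start. The variant G11T, which belongs to no known miRNA, had C in 14 of 21 reads in young and 30 of 39 in old.

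**Figure D5:**
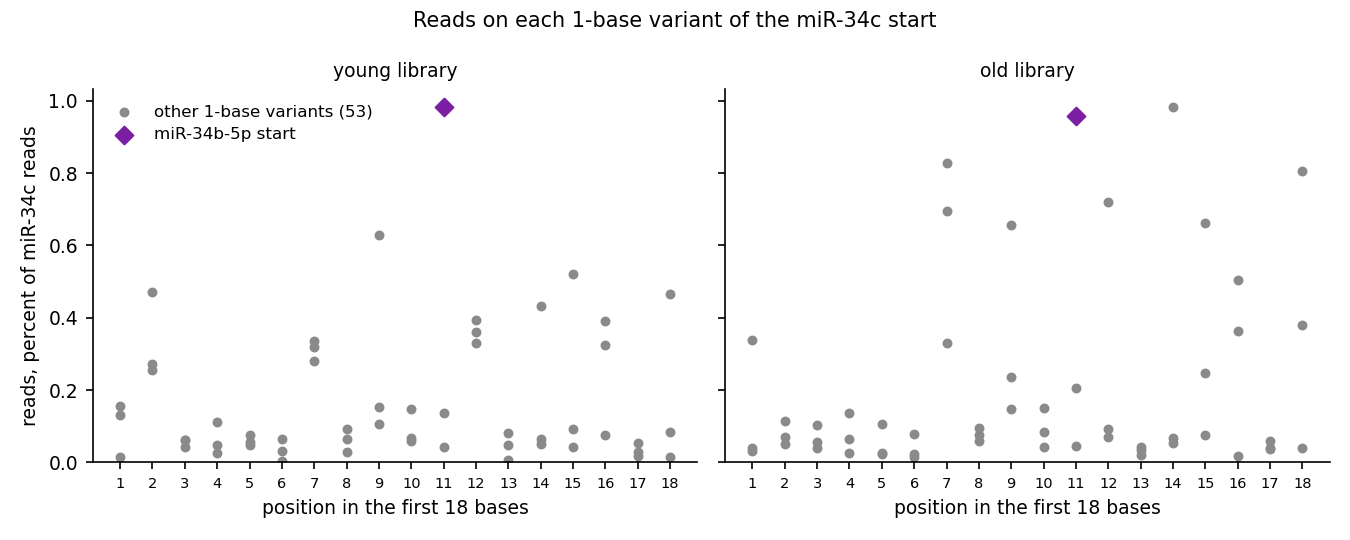
Reads of each start that differs from the mmu-miR-34c start by 1 base, as percent of mmu-miR-34c reads, by position of the difference from the 5′ end, in the young and old library. The start of mmu-miR-34b-5p (diamond) stands at 0.983% in young and 0.957% in old, the other variants (grey) have medians of 0.0749% and 0.0770%, and 1 of them exceeds it in old.

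The sequencer left some bases undetermined, and more of them in the young library. Such a base stood in 4.57% of all young reads and 1.07% of old reads. Starts of mmu-miR-34c with 1 undetermined base numbered 1281 in young and 305 in old, of which 1210 and 181 had it at position 2, within the seed. These reads were left out of the counts above, which lowers the young count of mmu-miR-34c by 3.84% and the old by 0.728%.

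Reads with the seed GGCAGTG at bases 2 to 8 numbered 35215 in young and 46658 in old, or 7785 and 7007 RPM. The 5 known starts held 92.9% of them in young and 90.4% in old, and mmu-miR-34c alone 91.0% (Wilson interval 90.7 to 91.3) and 89.1% (88.8 to 89.4). The reads with this seed in either library were therefore mostly those of mmu-miR-34c, and the decrease of mmu-miR-34a concerned under 1% of them. Whether shares of reads equal shares of molecules was not tested.

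Among miRNAs linked to p53, 12 of 13 listed names were matched and 9 had at least 10 reads in a library. By total reads 6 of the 9 were called lower in old and 2 higher, beside 60.3% and 8.11% of all known starts, with a median log2 ratio of -0.22 beside -0.66. The list includes mmu-miR-34a, mmu-miR-34b-5p and mmu-miR-34c. Of the others, miR-192 had a log2 ratio of -0.59, miR-194 of -0.26 and miR-143 of -0.87, all called lower by total reads. miR-16, which represses cell cycle genes, had 0.68 and miR-15a, its cluster partner, 0.32, both called higher. miR-107 shares its first 18 bases with miR-103 and their common start had -0.19, also called lower. Relative to the median known start, 7 of the 9 lay above it, all but mmu-miR-34a and miR-143. miR-215 had 1 and 6 reads, miR-200c 2 and 1, and miR-141 none.

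Among 7 names linked to multiciliated cells and choroid plexus, 6 were matched and 4 had at least 10 reads, mmu-miR-34b-5p, mmu-miR-34c, mmu-miR-449a and miR-204. mmu-miR-449a reached 10 reads only in young, so its direction is not counted. By total reads mmu-miR-34b-5p, mmu-miR-34c and miR-204 were lower in old, beside 80.8% of all known starts. mmu-miR-34c and miR-204 were called lower, beside 60.3% of all known starts. Only miR-204 lies outside the family, so the list adds 1 name to the values above. mmu-miR-34b-5p and mmu-miR-34c lay above the median known start. miR-204, known from choroid plexus and retinal pigment epithelium, had 304 reads in young and 148 in old, a log2 ratio of -1.60 (adjusted exact binomial p = 8.60e-30), and miR-211 had no read. mmu-miR-449a was at 13 and 9 reads beside it. The part that the share of choroid plexus or ependyma in the tissue had in these values was not tested.

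Marker miRNAs of other cells were compared by total reads. The 4 of neurons, the 2 of oligodendrocytes and the 3 of blood were all called lower in old, as were 60.3% of all known starts, with medians of -0.66, -0.88 and -0.92 and summed levels of 66849 against 33665, 1256 against 640 and 606 against 322 RPM in young against old. Relative to the median known start, 2 of the 4 neuron markers lay above it, and the oligodendrocyte and blood markers lay below. The marker miR-9 is its 5p arm, and miR-9-3p, with 1786 reads in young and 6166 in old, had 1.23 and was called higher. Among other arms of the neuron markers, miR-132-5p had -1.41 and miR-128-1-5p -1.625, both called lower, and miR-128-2-5p had -0.17, not called. The blood marker miR-144 is its 3p arm, and miR-144-5p, with 78 reads in young and 150 in old, had 0.39, not called. Other arms of the oligodendrocyte markers were called lower, miR-219a-1-3p at -2.16 and miR-338-5p at -0.58. Of pituitary, miR-375 had -2.32 and miR-7a -0.45. Of muscle, miR-1 had 0.64 and miR-206 -0.04. Their part in the values of the family was not tested.

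Known starts at similar levels in the 2 libraries gave the scale for the main members. The 10 starts nearest to mmu-miR-34c in mean level, 5 above and 5 below, had log2 ratios from -1.31 (miR-127-3p) to 0.77 (let-7d-5p) with a median of -0.13, and 5 of them lay below mmu-miR-34c. The 10 nearest to mmu-miR-34a ranged from -1.18 (miR-490-3p) to 0.31 (miR-369-5p) with a median of -0.56, and only miR-490-3p lay below mmu-miR-34a.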

How the data were processed

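The members and lists were chosen with earlier results of these data known. The authors size-selected total RNA at 18 to 30 bases, sequenced the combined cDNA of 2 mice per age, trimmed adapters and aligned to mm9, and deposited raw counts of reads per distinct tag for each library. Tags were read as counts, with both marks for an undetermined base treated as 1. Reads were summed over tags with the same first 18 bases. The 370 known starts (RefSeq mature table, the family and 5 listed miRNAs found by their listed counts) had at least 10 reads in a library. Old/young ratios per total reads (factor 1.47) were tested with a two-sided exact binomial test, adjusted after Benjamini and Hochberg, with 0.5 reads in place of 0 in ratios. edgeR's quasi-likelihood test needs replicates, which these data lack, so the exact tests on reads replaced it, and edgeR 4.0.16 with an assumed coefficient of variation, TMM and DESeq2 size factors served as alternatives. miRNAs named are the family, its other arms, 2 lists, marker miRNAs and the 5 starts nearest in level above and below mmu-miR-34c and mmu-miR-34a. Scripts were tested on simulated data. Hairpins were located in NCBIM37 with GENCODE annotation, and RefSeq sequences came from the GRCm38.p6 table. Computations used Python with scipy, and R.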

Additional observations from a re-analysis of the deposited data

How the results depend on the processing

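No paired analysis was possible because there was 1 library per age, and for the same reason no replicate could be left out. The assumed coefficient of variation (edgeR's exact test) was set between libraries, each of 2 mice combined, and not between animals. With it, mmu-miR-34a was no longer called at 0.2 or 0.4 (log2 -1.11 in both, adjusted exact p = 0.0545 and 0.805). mmu-miR-34c was called at none of 0.1, 0.2 and 0.4 (log2 -0.18). Over its 17 alternatives mmu-miR-34a kept its direction, from -1.21 to -0.45. mmu-miR-34c turned to 0.19 without the let-7 starts in the depth, 0.48 with the TMM factor and 0.48 with DESeq2 size factors, and was called higher in all 3. Under the same 3, mmu-miR-34b-5p turned to 0.15, 0.45 and 0.44, called higher in the last 2 (adjusted exact binomial p = 0.000122 and 0.000167), and mmu-miR-34b-3p to 0.13, 0.43 and 0.42 (0.44 with the exact tag only). mmu-miR-34b-5p was called lower with the exact tag only (-0.44), templated 3′ ends only (-0.27), depth by known starts (-0.31), a linear GC correction (-0.37) and, chosen after seeing the data, tags with 1 undetermined base (-0.27). The difference between mmu-miR-34a and mmu-miR-34c stayed between -0.97 and -0.70, and that between mmu-miR-34b-5p and mmu-miR-34c did not pass under the 5 alternatives tested. The GC correction, not tested there, gave -0.23. The difference between the arms of miR-34a was -1.66 with exact tags only and no longer passed. None of these differences was tested with an assumed coefficient of variation. Known starts lower by at least 2-fold numbered 57 without let-7, 32 with TMM, 33 with DESeq2, 272 with no read minimum and 71 with a minimum of 50, beside 116. Those higher numbered 5 by reads on known starts, 22 without let-7, 38 with TMM and with DESeq2, 40 with no minimum, 5 with a minimum of 50 and 18 with exact tags, beside 8. The share of mmu-miR-34c in the family was 97.6% in young and 98.1% in old with exact tags only. The cause of these shifts was not tested. Counts under 20 reads leave mmu-miR-449a and mmu-miR-34b-3p unresolved.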
